A study of Homo sapiens with 8 samples.

Results

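Tetraspanins are small multi-pass membrane proteins. The 31 tetraspanin genes described here are all rows of the count table whose symbol is TSPAN followed by a number, or is CD9, CD37, CD53, CD63, CD81, CD82, CD151, UPK1A or UPK1B, out of 30434 genes in the table. They were measured by RNA sequencing in SKBR3, an established human breast cancer cell line with amplified ERBB2, grown in DMEM with fetal bovine serum. The 4 control libraries carry the genotype label WT. The 4 knockdown libraries come from SKBR3 cells with stable expression of short hairpin RNAs against FOXA1, a pioneer transcription factor of luminal breast cells; the hairpins were delivered as 3 individual constructs in lentivirus. The labels give the controls no vector or hairpin, and they do not say whether replicates are separate cultures, so the p-values measure the spread between these libraries, which may be technical. The study asked how FOXA1 bears on pathways related to HER2, the protein made from ERBB2.

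Tetraspanins gather other membrane proteins into patches called tetraspanin-enriched microdomains, and they act mainly through those partners. CD151 binds the laminin receptors of the integrin family, CD9 and CD81 bind the immunoglobulin proteins IGSF8 and PTGFRN, and CD63 sits in late endosomes and is a common marker of exosomes. A set of members called TspanC8 escorts the sheddase ADAM10 out of the endoplasmic reticulum and shapes which substrates it cuts. CD82 was first known as a suppressor of metastasis.

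Library totals ran from 19087878 to 23786684 counts. Where every control library had 0 counts, a fold was taken against a floor of 3 counts, which equalled 0.123 to 0.153 CPM. CPM is a gene's count per 1000000 counts after TMM scaling. FOXA1 itself was lower in 4 of 4 knockdown libraries, at 2.06% of its control level. The luminal markers EPCAM, KRT7, KRT8, KRT18, KRT19 and ERBB2 were all present, and their sum went from 18290 to 20370 CPM in control to 11480 to 12380 CPM in knockdown libraries. They did not move as a set: ERBB2, KRT7 and KRT19 fell to 18.3%, 28.9% and 27.3% of control, and KRT8, KRT18 and EPCAM rose to 124%, 150.0% and 126%. The call of EPCAM was lost with the shift of its chromosomal neighbours removed (edgeR adjusted p of 0.274). Control replicate 3 stood apart: its chi-square per degree of freedom against the other controls was 4.70 to 6.05, where the other control pairs gave 2.13 to 2.34 and knockdown pairs 2.83 to 3.97. No pair was within sampling noise.

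Tetraspanin genes moved in both directions. In all, 23 of the 31 had enough counts to be tested, and edgeR's quasi-likelihood test called 22 of them at a Benjamini-Hochberg adjusted p under 0.05. Calls were common in these data, at 77.1% of the 16430 genes tested, so the share among the members (95.7%) is read against that. Of the members, 12 fell and 10 rose, where 37.7% of all tested genes fell and 39.4% rose. A change of 2-fold or more was called for 8 falls and 5 rises. This was 56.5% of the tested members, against 28.3% of all tested genes, with 34.8% of the members falling by that much against 13.4%, and 21.7% rising against 14.9%. The median log2 fold change of the tested members was -0.21, and that of all tested genes 0.02. For 22 of the 23 all libraries of one group lay above all of the other, which held for 72.0% of all tested genes. In bulk RNA, a smaller share of cells with a gene and less of its RNA per cell cannot be told apart. Of the 23, 4 genes (TSPAN2, CD37, TSPAN18 and UPK1A) met the count filter in one group alone and so had to differ. Without these 4, the remaining 19 held 7 falls and 2 rises of 2-fold or more, or 36.8% and 10.5%. Among all tested genes, which still include genes that met the filter in one group alone, the shares were 13.4% and 14.9%. The share of rises exceeded that of all tested genes only with the 4 included.

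**Figure D1:**
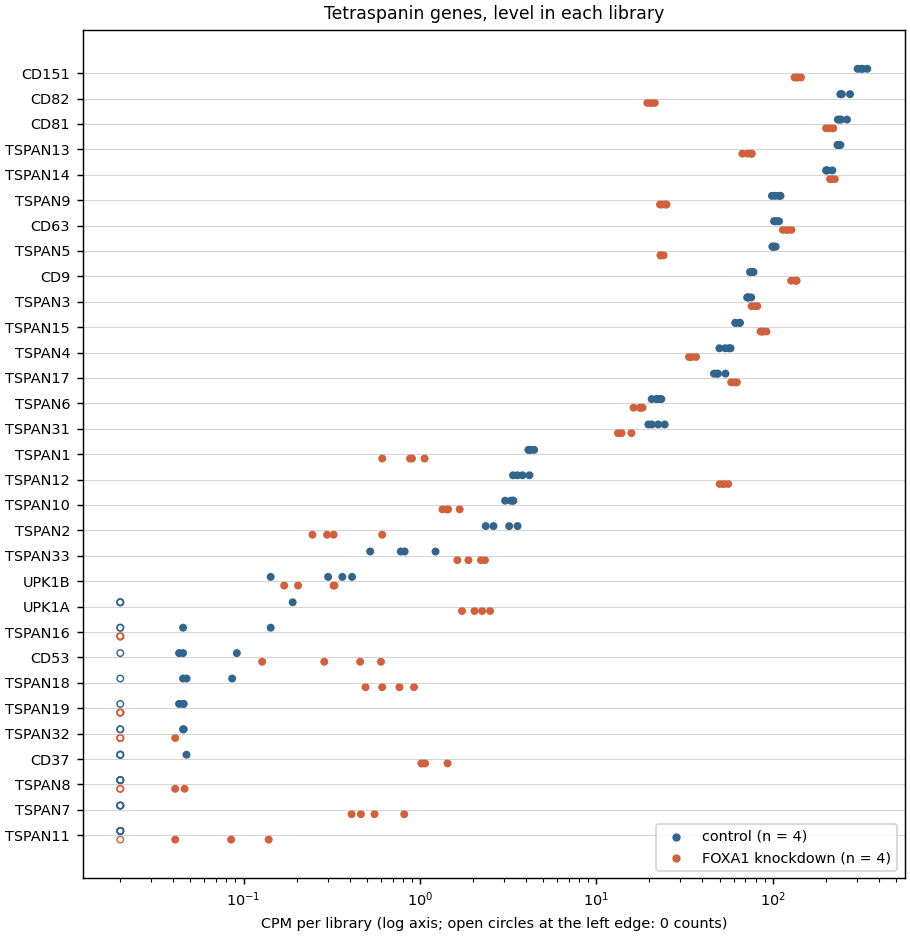
CPM of each of the 31 tetraspanin genes in each of the 8 libraries on a log axis, ordered by control mean; open circles at the left edge stand for 0 counts. The groups are far apart for CD82, TSPAN13, TSPAN9, TSPAN5 and TSPAN12, and close together for CD81, TSPAN14, CD63 and TSPAN3.

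Among the subgroups, the largest loss was in that of CD151, CD82, TSPAN4 and TSPAN11. CD82 (chromosome 11, 44564427 to 44620363, GENCODE 29 on GRCh38) stood at 247, 242, 274 and 244 CPM in control replicates 1 to 4 and at 19.5, 20.6, 20.3 and 21.5 CPM in knockdown replicates 1 to 4. Every knockdown library lay far below every control, and control replicate 3 was the highest. The knockdown libraries kept 8.13% of the control level (log2 fold change -3.62, SE 0.0515, edgeR adjusted p of 2.13e-27). CD151 (chromosome 11, 832843 to 839831), the tetraspanin bound most firmly to laminin receptors, had 317, 303, 344 and 324 CPM in control and 138, 133, 137 and 145 CPM in knockdown. It retained 43% (log2 fold change -1.22, SE 0.0452, edgeR adjusted p of 1.32e-19), again without overlap. TSPAN4, which lies beside CD151 (chromosome 11, 842808 to 867116) and is known as a marker of migrasomes, fell to 64%, from 54.5 CPM ± 3.46 to 34.9 CPM ± 1.38 (SD over n = 4 libraries a group; edgeR adjusted p of 1.89e-11). TSPAN11, the closest relative of CD151, had 0 counts in every control library and 2, 1, 0 and 3 in the knockdown libraries, and was not tested. All 3 tested members of this subgroup therefore fell. The subgroup was listed with earlier results of these data known, so this is not a result about all tetraspanins that bind integrins. CD151 shares 257 of its 3938 exon bases with POLR2L on the opposite strand, which averaged 3326 counts in control and 2002 in knockdown. Whether reads were assigned by strand is not given in the sources used here, so the size of the fall of CD151 is less certain.

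Neighbouring genes can share a shift, so each tested member is also set beside the median log2 fold change of the 50 tested genes nearest to it, which ran from -0.72 to 0.63 over the members. That median was -0.52 around CD82 and -0.37 around both CD151 and TSPAN4. With this regional shift taken out, the log2 fold change was -3.11 for CD82, -0.85 for CD151 and -0.28 for TSPAN4. All 3 stayed lower and past the threshold, CD151 by less than 2-fold. No cause of these shifts was tested.

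**Figure D2:**
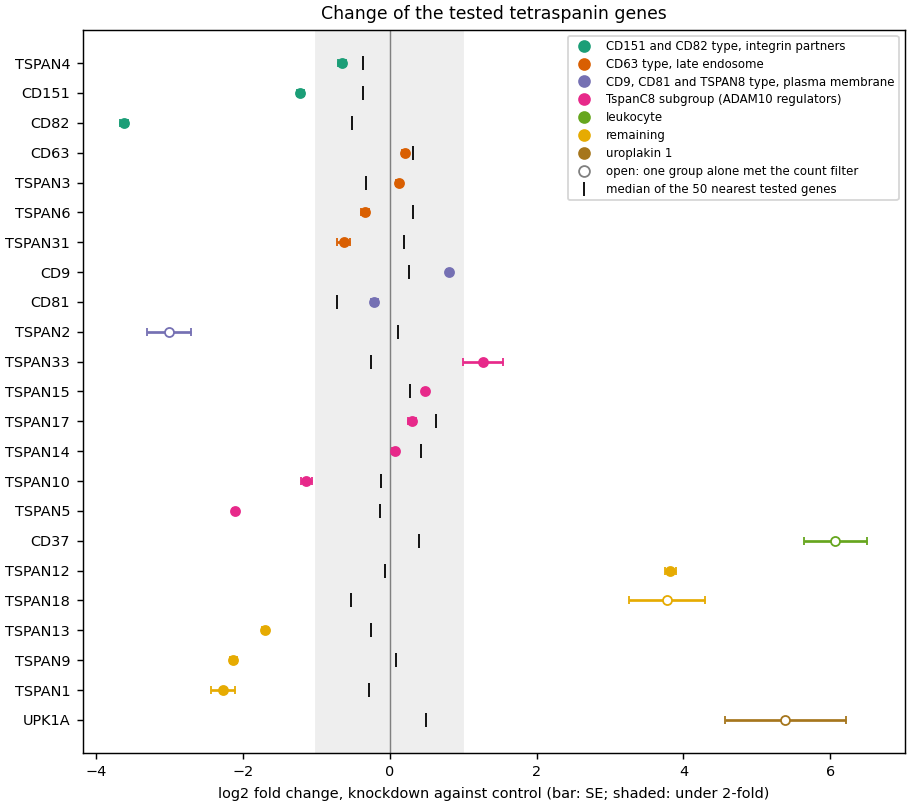
Fitted log2 fold change of the 23 tested tetraspanin genes, grouped by subgroup, with the SE between libraries as bars and a black tick for the median of the 50 nearest tested genes; open symbols mark the 4 genes that met the count filter in one group alone. CD82, TSPAN2, TSPAN1, TSPAN9, TSPAN5 and TSPAN13 lie well to the left of their ticks, and TSPAN12 lies at 3.82 with a tick at -0.07.

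CD9 and CD81, 2 abundant tetraspanins of the cell surface, moved in opposite directions and by less. CD9 (chromosome 12, 6199715 to 6238271), needed for the fusion of egg and sperm and widely used as a vesicle marker, had 77.9, 77.1, 76.3 and 74.4 CPM in control and 137, 127, 135 and 135 CPM in knockdown. It rose to 175% of control with no overlap (log2 fold change 0.80, SE 0.0273, edgeR adjusted p of 4.15e-16). CD81 (chromosome 11, 2376177 to 2397419), an entry receptor of hepatitis C virus, had 244, 239.6, 264 and 234 CPM in control and 219, 209, 201 and 220.5 CPM in knockdown, and fell to 86.5% (log2 fold change -0.21, SE 0.0488, edgeR adjusted p of 4.05e-05). The direction of CD81 turned when the regional shift was removed: its neighbours had a median of -0.72, and its own value became 0.51. That of CD9 became 0.55. TSPAN2, known from oligodendrocytes, fell to 12.6% of a low level, from 70, 52, 55 and 83 counts to 7, 6, 12 and 7 (log2 fold change -3.01, SE 0.304, edgeR adjusted p of 3.63e-11). TSPAN2 met the count filter in every library of the control group alone and so had to differ. TSPAN8, a gut and pancreas tetraspanin linked to metastasis, was at the floor, with at most 1 count in any library.

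None of the 4 tested members of the subgroup listed with CD63 (CD63, TSPAN3, TSPAN6 and TSPAN31) changed 2-fold. CD63 (chromosome 12, 55725323 to 55729707) had 103, 105, 109 and 102 CPM in control and 120.2, 114, 128 and 122 CPM in knockdown, a rise to 115% of control (log2 fold change 0.21, SE 0.0384, edgeR adjusted p of 4.28e-05). The groups did not overlap, but the rise was smaller than that of its neighbours (median 0.32), and with the regional shift removed the value was -0.11. CD63 shares 237 of its 2633 exon bases with AC009779.2 on the opposite strand, which averaged 48.75 counts in control and 53.0 in knockdown. TSPAN3 rose to 109% (edgeR adjusted p of 0.00929) and TSPAN6 fell to 79% (edgeR adjusted p of 1.71e-05). TSPAN31, first found as a gene amplified in sarcoma, fell to 64.6%, from 21.8 CPM ± 2.07 to 14.1 CPM ± 1.18 (SD over n = 4 libraries a group; edgeR adjusted p of 3.06e-08). Its count is uncertain, because 1369 of its 5385 exon bases also belong to CDK4 on the opposite strand, which averaged 2574 counts in control and 3909 in knockdown libraries. A further 189 belong to AGAP2, also on the opposite strand, which averaged 101.0 counts in control and 41.5 in knockdown. TSPAN7, best known from neurons, had 0 counts in every control library and 13, 10, 16 and 10 in knockdown, at least 4.11-fold higher against a floor of 3 counts per library; it was just short of the filter and has no test. It shares 676 exon bases (21.7%) with AF241726.2 on the same strand, which averaged 2.5 counts in control and 6.5 in knockdown.

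The 6 TspanC8 genes, the regulators of ADAM10, were all expressed and split by member. TSPAN5 (chromosome 4, 98470367 to 98658629) had 99.7, 104, 102 and 99.98 CPM in control and 23.2, 24.1, 23.1 and 23.2 CPM in knockdown. Every knockdown library lay below every control, and the mean was 23.1% of control (log2 fold change -2.11, SE 0.0194, edgeR adjusted p of 1.12e-23). TSPAN10, a gene of pigment cells, fell to 45.1%, from 74, 67, 69 and 78 counts to 34, 41, 28 and 29 (log2 fold change -1.14, SE 0.0759, edgeR adjusted p of 2.32e-07). It shares 36 exon bases with NPLOC4 on the opposite strand, which averaged 5819 counts in control and 3522 in knockdown, so its low count is uncertain. TSPAN15 rose to 139%, from 63.3 CPM ± 2.09 to 88.2 CPM ± 2.87 (SD over n = 4 libraries a group; edgeR adjusted p of 9.13e-11). TSPAN33, studied mostly in blood cells, rose from 17, 27, 11 and 19 counts to 55, 46, 32 and 48 (log2 fold change 1.27, SE 0.27, edgeR adjusted p of 1.57e-05).

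TSPAN14 and TSPAN17 depended on the regional shift. TSPAN14 was the one tested member not past the threshold, at 206 CPM ± 7.89 in the control and 216 CPM ± 6.06 in the knockdown group (SD over n = 4 libraries a group; log2 fold change 0.07, SE 0.0337, edgeR adjusted p of 0.0853); the groups overlapped, and without control replicate 3 its log2 fold change was 0.09 with an adjusted p of 0.012. TSPAN17 rose to 123% (log2 fold change 0.30, SE 0.0516, edgeR adjusted p of 4.88e-06). Their neighbour medians were 0.43 and 0.63, and with these removed TSPAN14 was at -0.36 and TSPAN17 at -0.34, both lower.

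Per kilobase of exon, the TspanC8 genes summed to levels that overlapped between the groups, 59.6 ± 1.72 CPM per kilobase in control and 61.3 ± 1.73 in knockdown (SD over n = 4 libraries a group). Their mix changed. TSPAN5 went from 22.9% ± 0.488 of that sum to 5.15% ± 0.222, and TSPAN15 from 40.2% ± 0.488 to 54.4% ± 0.230. TSPAN14 held 19.4% ± 0.480 and 19.7% ± 0.127, and TSPAN17 15.9% ± 0.685 and 19% ± 0.255 (SD over n = 4 libraries a group). ADAM10 itself was at 129 CPM ± 11.3 and 120.2 CPM ± 4.84 (SD over n = 4 libraries a group; log2 fold change -0.11, SE 0.0713), not past the threshold (edgeR adjusted p of 0.0883). With the regional shift removed its sign turned and it passed, at 0.16 (edgeR adjusted p of 0.0146).

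**Figure D3:**
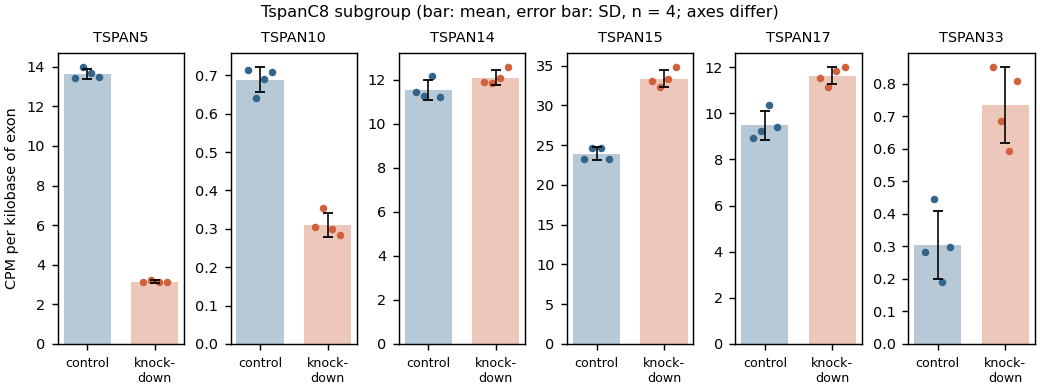
CPM per kilobase of exon of the 6 TspanC8 genes, with bars for the mean, error bars for the SD and a point per library (n = 4 per group); each panel has its own axis from 0. TSPAN5 and TSPAN10 are lower in every knockdown library, TSPAN15, TSPAN17 and TSPAN33 are higher in every one, and the TSPAN14 groups overlap.

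The largest rise of a member expressed in both groups was in TSPAN12, a co-receptor of FZD4 in the response to norrin during growth of retinal vessels. TSPAN12 (chromosome 7, 120787320 to 120858402) had 3.57, 3.81, 3.37 and 4.18 CPM in control and 53.1, 50.1, 56 and 52.4 CPM in knockdown libraries, all far above every control. The mean was 14.2 times that of control (log2 fold change 3.82, SE 0.0738, edgeR adjusted p of 1.02e-24). Its neighbours had a median of -0.07, and removing it left 3.89.

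TSPAN13 and TSPAN9 fell from high levels. TSPAN13 (chromosome 7, 16753535 to 16784536) had the highest level per kilobase of all members in control, 106 ± 1.81 CPM per kilobase (SD, n = 4). It stood at 234, 242, 233 and 235 CPM in control and at 76.1, 67.3, 72.2 and 75.7 CPM in knockdown, with no overlap, and kept 30.8% (log2 fold change -1.70, SE 0.043, edgeR adjusted p of 1.75e-22). TSPAN9 (chromosome 12, 3077355 to 3286564), known from platelets, had 108, 103, 111 and 99.1 CPM in control and 24.6, 23, 23.6 and 25 CPM in knockdown, or 22.8% of control (log2 fold change -2.13, SE 0.0459, edgeR adjusted p of 8.96e-23). TSPAN9 and CD9 both lie on chromosome 12 and moved in opposite directions.

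TSPAN1, a tetraspanin of epithelial surfaces, fell to 20.4%, from 90, 92, 89 and 103 counts in control to 25, 22, 12 and 19 in knockdown (log2 fold change -2.27, SE 0.163, edgeR adjusted p of 3.64e-12). TSPAN18, described in endothelial cells, went from 0, 1, 1 and 2 counts to 18, 12, 12 and 20. The ratio of its summed counts was 15.3, with an exact 95% interval of 5.69 to 58.0 that covers counting error only (edgeR adjusted p of 2.2e-07). TSPAN18 met the count filter in the knockdown group alone and so had to differ. It shares 74 exon bases with TP53I11 on the opposite strand, which went from a mean of 3724 counts to 76.0. The 3 endothelial markers summed to 20.7 to 22.1 CPM in control and 19.7 to 22.4 CPM in knockdown, and the 4 fibroblast markers to 5.22 to 6.98 and 6.21 to 7.66 CPM. Within these sums VWF fell to 16.2% of control and CDH5 rose to 125%, and COL1A1 fell to 80.4% while PDGFRB rose to 690.0% from a low level. The part of such cells in the rise of TSPAN18 was not tested. TSPAN16 had at most 3 counts and TSPAN19 at most 1 count in any library, and neither was tested.

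The tetraspanins of leukocytes and urothelium were at or near the floor in control cells. CD37, known from B cells, had 0, 0, 1 and 0 counts in control and 24, 25, 21 and 31 in knockdown, a ratio of summed counts of 99.8 (exact 95% interval 17.5 to 3980; edgeR adjusted p of 1.95e-10). CD37 met the count filter in the knockdown group alone and so had to differ. Its exons share 319 of 4161 bases with TEAD2 on the opposite strand, which averaged 52.5 counts in control and 283.5 in knockdown. They also share 132 bases with AC011450.1 on the opposite strand, which averaged 0.25 counts in control and 6.75 in knockdown. The rise of CD37 is therefore uncertain. CD53 had 2, 1, 0 and 1 counts in control and 3, 7, 9 and 13 in knockdown and was below the filter (ratio of summed counts 7.91, exact 95% interval 2.80 to 30.8). TSPAN32 had at most 1 count. Of 7 leukocyte markers, 5 were in the table and summed to 0.95 to 1.77 CPM in control and 1.34 to 1.53 CPM in knockdown. Of them, 3 exceeded 3 counts in some control library and 2 in some knockdown library. Within this sum LYZ stood at 97.8% of control. CD14 went from 5, 5, 2 and 4 counts to 12, 11, 13 and 11 (edgeR adjusted p of 0.000723), and met the count filter in the knockdown group alone. ITGAM went from 8, 7, 6 and 11 counts to 1, 2, 3 and 2 and was not tested. PTPRC, which all leukocytes carry, had at most 3 counts in any library; the part of such cells in the rise of CD37 was not tested.

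UPK1A, a subunit of the plaques that line the bladder, had 0, 0, 4 and 0 counts in control, all in replicate 3, and 48, 55, 34 and 54 in knockdown (ratio of summed counts 47.2, exact 95% interval 18.1 to 175; edgeR adjusted p of 9.39e-10). The size of this ratio, like that of CD37, rests on control replicate 3, without which every control library is at 0. UPK1A met the count filter in the knockdown group alone and so had to differ. UPK1A-AS1, on the opposite strand over 258 of the 1366 exon bases of UPK1A, went from a mean of 0.25 to 18.75 counts, and without knowledge of strand the reads of the pair cannot be told apart. Its relative UPK1B had 9, 8, 3 and 7 counts in control and 4, 8, 4 and 7 in knockdown, below the filter. Among the uroplakins that pair with them, UPK2 had 4, 0, 2 and 4 and 5, 4, 2 and 10 counts, UPK3A had 2, 2, 2 and 3 and 0 in every knockdown library, and UPK3B fell from 9.76 CPM ± 0.679 to 0.595 CPM ± 0.175 (SD over n = 4 libraries a group; edgeR adjusted p of 4.2e-18). UPK3B met the count filter in every library of the control group alone and so had to differ.

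The summed tetraspanin level was lower in every knockdown library than in any control. Members took 0.189% ± 0.00485 of all counts in control and 0.136% ± 0.00230 in knockdown libraries (SD over n = 4 libraries a group). Per kilobase of exon the sum went from 447 ± 11.1 to 285 ± 7.97 CPM per kilobase (SD over n = 4 libraries a group), 63.7% of control. Subgroups carried this unequally. The sum of CD151, CD82, TSPAN4 and TSPAN11 stood at 30.1% of control. That of TSPAN1, TSPAN9, TSPAN12, TSPAN13, TSPAN16, TSPAN18 and TSPAN19 stood at 42.1%. The sum of CD63, TSPAN3, TSPAN6, TSPAN7 and TSPAN31 stood at 108%, and most of it was CD63. The TspanC8 sum stood at 103% and the sum of CD9, CD81, TSPAN2 and TSPAN8 at 116%. In control libraries 21 members exceeded 3 counts in each, and in knockdown 25 or 26.

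The order of the members changed with it. In control the 5 highest per kilobase were TSPAN13, CD151 at 81.8 ± 4.29, CD82 at 62.1 ± 3.76, CD63 at 39.8 ± 1.12 and CD81 at 33.2 ± 1.75 CPM per kilobase (SD over n = 4 libraries a group). The library values of each did not overlap those of the next. In knockdown CD63 was first at 45.9 ± 2.08, followed by CD151 at 35.1 ± 1.23, TSPAN15 at 33.3 ± 1.08, TSPAN13 at 32.7 ± 1.84 and CD9 at 32.1 ± 1.02 CPM per kilobase. The library values of each of the last 4 overlapped those of its neighbour. CD82 went from rank 3 to rank 12 of the 31, and TSPAN12 from rank 17 to rank 7. With the longest transcript as the length, CD151 ranked above TSPAN13 in control, and CD9 ranked 2 in knockdown, above CD151 and TSPAN15.

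**Figure D4:**
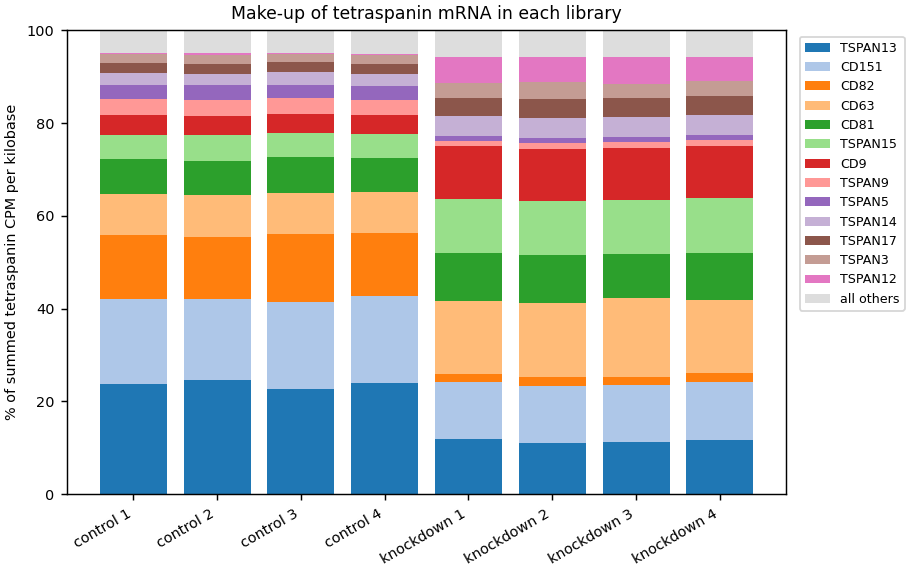
Share of each tetraspanin gene in the summed CPM per kilobase of exon, one stacked bar per library, with genes under 3% in both groups pooled as all others. CD82 went from 13.9% ± 0.493 to 1.77% ± 0.0796 and TSPAN13 from 23.8% ± 0.835 to 11.5% ± 0.371, while CD63 went from 8.90% ± 0.108 to 16.1% ± 0.560 and CD9 from 4.11% ± 0.127 to 11.3% ± 0.142 (SD over n = 4 libraries a group); shares sum to 100%, so a fall in some raises the rest.

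The proteins that tetraspanins bind were read from the same fit. The table held 30 listed partner genes, of which 28 were tested, 14 rose and 10 fell (85.7% called, against 77.1% of all tested genes), with a median log2 fold change of 0.13. Of these, 7 rose and 4 fell by 2-fold or more. That is 25.0% and 14.3% of the tested partners, against 14.9% and 13.4% of all tested genes. Among them, ITGA6 and ZDHHC2 met the count filter in every library of the knockdown group alone, and CLDN1 and UPK3B of the control group alone. These genes had to differ, so their calls and p-values add nothing to the count. The integrin subunits ITGA6, ITGB1 and ITGA5 rose. ITGA6, the alpha subunit of a laminin receptor that CD151 binds, went from 3, 7, 3 and 7 counts to 3700, 4008, 3269 and 3554 (ratio of summed counts 718, exact 95% interval 465 to 1180; edgeR adjusted p of 3.19e-30). ITGB1, the shared beta subunit, rose from 180.5 CPM ± 9.84 to 360.4 CPM ± 10.2 and ITGA5, of the fibronectin receptor, from 3.02 CPM ± 0.426 to 34.8 CPM ± 1.34 (SD over n = 4 libraries a group, edgeR adjusted p of 5.58e-18 and 8.91e-23). The neighbours of ITGB1 had a median of 0.47. With this shift removed, the log2 fold change of ITGB1 went from 1.0 to 0.53 and was still called (edgeR adjusted p of 3.06e-12). Named after their values were seen, ITGA3 (log2 fold change -0.08, SE 0.0389, edgeR adjusted p of 0.17) and ITGA2 (edgeR adjusted p of 0.303) did not pass the threshold; with the regional shift removed both were called lower, at -0.34 and -0.19 (edgeR adjusted p of 1.63e-06 and 0.0272). ITGB4, named in the same way, had a log2 fold change of -0.14 (edgeR adjusted p of 0.0122), and this call was lost with the regional shift removed (edgeR adjusted p of 0.952).

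Of the partners of CD9 and CD81, PTGFRN fell from 174 CPM ± 4.66 to 114 CPM ± 4.36 (SD over n = 4 libraries a group; edgeR adjusted p of 8.44e-14), and IGSF8 was at 63.8 CPM ± 3.69 and 61.9 CPM ± 2.42 (SD over n = 4 libraries a group; log2 fold change -0.04, SE 0.0506, edgeR adjusted p of 0.433). With the regional shift removed IGSF8 was called higher, at 0.12 (edgeR adjusted p of 0.0288). HBEGF, a growth factor precursor that CD9 binds, rose (log2 fold change 1.48, SE 0.242). MET rose (log2 fold change 1.30, SE 0.0345), as did CD44, a hyaluronan receptor (2.99, SE 0.118), while ERBB2 fell (-2.45, SE 0.0459) and so did CLDN1, a tight junction protein (-5.28, SE 0.137). SDCBP, the syntenin adaptor that binds CD63 and syndecans in vesicle formation, rose (1.48, SE 0.0272), and SDC1 fell (-1.75, SE 0.0381). ZDHHC2, an enzyme that adds palmitate to CD9 and CD151, had 0 counts in every control library and 98, 104, 61 and 86 in knockdown, at least 28.4-fold higher against 3 counts per library (edgeR adjusted p of 1.35e-14). The largest edgeR adjusted p among the 8 genes from HBEGF to ZDHHC2 was 3.7e-08. Of 7 relatives listed in the table, 2 were tested, and both met the count filter in control alone and so had to differ. ROM1, a tetraspanin of photoreceptors, fell from 2.18 CPM ± 0.464 to 0.487 CPM ± 0.263. TM4SF1, of the separate L6 family, fell from 14.7 CPM ± 0.674 to 0.298 CPM ± 0.11 (SD over n = 4 libraries a group, edgeR adjusted p of 8.15e-08 and 3.2e-21). The untested relatives were at low counts. PRPH2 went from 2 to 24 counts summed over libraries, TM4SF5 from 0 to 17 and TM4SF4 from 2 to 9, each higher in every knockdown library. For TM4SF19 and TM4SF20 the groups overlapped.

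**Figure D5:**
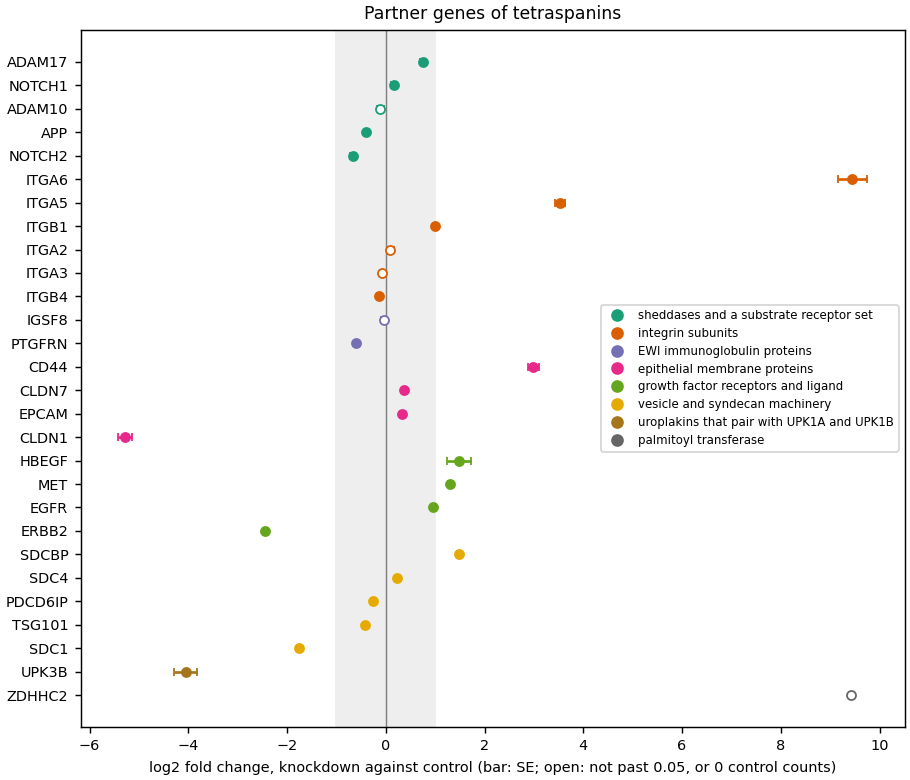
Fitted log2 fold change of the 28 tested partner genes by kind, with the SE between libraries as bars; open symbols mark genes not past an adjusted p of 0.05 and ZDHHC2, which had 0 control counts, so its position is set by the prior count. ITGA6, ITGA5 and ITGB1 lie to the right of 0, and ITGA2, ITGA3 and ITGB4 lie near 0.

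RefSeq promoters (GRCh38.p14) were matched by symbol for 23 of the 31 members. The 250 bases before each listed start were searched on both strands for the forkhead core words TGTTTAC or TATTTAC or TGTTTGC, none of which is contained in another. A word was found for 2 members: TGTTTAC in 1 of the 5 listed starts of TSPAN4 and in both starts of TSPAN8, whose windows overlap and hold one and the same site. Counted by window this is 3 of 43 member promoters (6.98%), against 8.27% of 35116 promoters of the same length; windows of one gene can overlap in both counts. None of the 3 words was in the windows of CD82, TSPAN1, TSPAN2, TSPAN5, TSPAN10, TSPAN12, TSPAN13, TSPAN33 or UPK1A, the 9 members with a change of 2-fold or more and a promoter in the table. This says only that these letters are not in the windows. Not every window lies before the gene in GENCODE 29. All 250 bases of the TSPAN12 window are in exons of that gene. The number is 220 for TSPAN13, 72 for CD82, 18 for TSPAN5, 14 for TSPAN1 and 1 for UPK1A. The windows of CD82 and TSPAN10 also start inside the GENCODE 29 span of their gene.

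The promoters of these 9 genes differed in their number of CpG, the dinucleotide at which DNA is methylated. It was 43 in TSPAN5, 30 in TSPAN2, 26 in CD82, 22 in TSPAN13, 4 in TSPAN1 and 4 in TSPAN10, all of which fell, and 12 in TSPAN33, 8 in TSPAN12 and 4 in UPK1A, all of which rose; the median over all promoters was 11. To show this range, the windows of TSPAN5 and TSPAN2 (the most CpG, both fell) and of TSPAN33 and UPK1A (both rose) are printed 5′ to 3′ on the gene's strand, with each CpG in capitals. Each ends at the base before the start site. TSPAN5 is at chr4:98658612-98658861 (minus strand), TSPAN2 at chr1:115089504-115089753 (minus strand), TSPAN33 at chr7:129144457-129144706 (plus strand) and UPK1A at chr19:35666267-35666516 (plus strand).
TSPAN5: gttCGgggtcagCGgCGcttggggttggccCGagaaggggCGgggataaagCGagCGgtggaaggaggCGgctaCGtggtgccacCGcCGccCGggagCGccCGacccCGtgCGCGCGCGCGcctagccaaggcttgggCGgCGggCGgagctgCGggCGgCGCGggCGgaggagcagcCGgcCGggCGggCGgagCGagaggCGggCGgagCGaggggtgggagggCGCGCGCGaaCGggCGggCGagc
TSPAN2: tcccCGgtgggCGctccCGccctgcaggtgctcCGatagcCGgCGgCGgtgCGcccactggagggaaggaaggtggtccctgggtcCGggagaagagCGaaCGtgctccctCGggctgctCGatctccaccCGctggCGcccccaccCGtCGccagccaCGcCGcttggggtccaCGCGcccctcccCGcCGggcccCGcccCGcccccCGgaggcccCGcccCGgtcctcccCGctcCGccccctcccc
TSPAN33: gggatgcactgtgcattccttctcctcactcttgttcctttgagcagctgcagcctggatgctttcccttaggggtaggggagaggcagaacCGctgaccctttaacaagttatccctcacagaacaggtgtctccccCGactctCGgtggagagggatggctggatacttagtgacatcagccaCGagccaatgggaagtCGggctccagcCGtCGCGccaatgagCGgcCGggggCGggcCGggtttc
UPK1A: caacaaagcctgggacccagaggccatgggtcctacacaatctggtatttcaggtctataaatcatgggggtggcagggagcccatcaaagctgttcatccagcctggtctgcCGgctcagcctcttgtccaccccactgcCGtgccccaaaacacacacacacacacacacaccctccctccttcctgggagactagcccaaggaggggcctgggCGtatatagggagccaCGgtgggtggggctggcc
GC content was 80.0% in the TSPAN5 window, 79.2% in that of TSPAN2, 59.6% in that of TSPAN33 and 60.0% in that of UPK1A, against a median of 58.0% over all promoters. The windows of TSPAN1 and TSPAN10, which also fell and are not printed, had 51.2% and 58.0%, below those of TSPAN33 and UPK1A. The printed windows therefore do not show how falls and rises differ.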

How the data were processed

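RNA was measured in 8 SKBR3 libraries, 4 control and 4 FOXA1 knockdown. Whole read counts per gene were deposited by the authors without normalization, per the file headers. The submitters' processing notes name FastQC, Salmon 1.9, DESeq2 3.16 and hg38, with no roles; whether Salmon estimates were rounded, which annotation was used and whether strand was read is not given in the sources used here.

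Groups came from sample titles. In R 4.3.3, edgeR 4.0.16 kept 16430 of 30434 genes (filterByExpr, minimum 10 counts, total 15), scaled by TMM (factors 0.965 to 1.04) and ran the robust quasi-likelihood test over all genes; fitted values use a prior count of 0.125. SEs come from log2 CPM with 0.5 added to each count. Each called member also had an exact two-sided permutation p of 0.0286, the smallest that 4 against 4 allow. Positions and exon lengths are from GENCODE 29. Members, lists and alternatives were chosen with earlier results of these data known. Values of all libraries are given for members changed 2-fold or more and the 5 highest per kilobase; those at low counts are given as counts. Partners are named by the same fold rule, plus ADAM10, ITGB1, IGSF8 and PTGFRN. ITGA2, ITGA3, ITGB4, UPK2, UPK3A, the untested relatives and the marker genes were named after their values were seen. The biological coefficient of variation was 4.56%. On simulated counts, 82 of 100 genes changed 2-fold and 92 of 100 changed 4-fold were recovered, and 15 of 189 calls were unchanged genes (16018 genes). The simulation changed no other genes, and as many up as down. In the data 77.1% of tested genes were called, so these rates need not hold there. Alternatives were RLE and library-size scaling, 2 other filters, DESeq2 1.42.0, limma 3.58.1 voom, a replicate block, removal of the regional shift, another gene length, and leaving out each library. Intervals and floors cover counting error only. Figures used matplotlib 3.10.9.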

Additional observations from a re-analysis of the deposited data

Results flagged for a closer look

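Dixon's ratio, the distance of an extreme library from its closest neighbour over the range of its group of 4, exceeded the 95% critical value in 6 of 48 sets of member values. Chance gives about 1 in 20, or 2.4, for continuous values, and cannot be set against the sets of CD37 and UPK1A controls, where a single library has counts and the ratio is 1 by construction. Control replicate 3 was the extreme library in 4 of the 6. Its CD82 level was 274.4 CPM, with the other controls at 242.0 to 246.7. Its summed tetraspanin level was 463.7 CPM per kilobase, with the others at 440.4 to 442.6. For CD37 and UPK1A it was the sole control with any count, 1 (0.0475 CPM) and 4 (0.190 CPM). The remaining 2 were knockdown libraries: CD37 was 1.43 CPM in replicate 4 and 1.02 to 1.07 in the others, and TSPAN5 was 24.1 CPM in replicate 2 and 23.1 to 23.3 in the others. No cause was tested.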

How the results depend on the processing

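Across 16 alternatives the 23 tested members gave 363 fold changes, of which 356 kept their direction and their side of the threshold. The 4 reversals all came from removing the regional shift: CD81 at 0.514, CD63 at -0.110, TSPAN14 at -0.359 and TSPAN17 at -0.339 on the log2 scale. TSPAN14 passed the threshold with library size only (0.152), with a mean count of 50 or more (0.082) and without control replicate 3 (0.090). Without control replicate 3 the fitted log2 fold change went from 5.39 to 8.58 for UPK1A and from 6.07 to 7.67 for CD37; all remaining controls are then at 0, so these sizes are set by the prior count. The number of members higher by 2-fold or more was 5, and became 8 with no filter on low counts and 1 under a floor of 50 on the mean count, since 4 of the 5 have lower means. Leaving out 1 library at a time gave 5 to 6 such rises and 8 such falls. With the replicate number as a block, 10 members rose and 12 fell, as without it. Same-numbered libraries showed correlations of deviations from -0.0307 to 0.0563, and not every library correlated best with its own number. The labels state no pairing, and these correlations cannot show that there was none. With the longest transcript as the length, the log2 ratio of the summed level was -0.606 instead of -0.651. Depth limits TSPAN7, TSPAN8, TSPAN11, TSPAN16, TSPAN19, TSPAN32, CD53 and UPK1B, which were not tested.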
